A study of Mus musculus with 9 samples.

Results

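The genes of cholesterol synthesis and its regulators were followed in RNA from mouse spinal cord at postnatal day 6. The set was given as 26 genes in pathway order: 20 enzymes, from the thiolases that condense acetyl-CoA to the sterol reductase Dhcr7, the regulators Srebf1, Srebf2, Scap, Insig1 and Insig2, and the sterol carrier Stard4. Members were found by the gene symbol of the array's annotation, and where a gene had several probe sets (groups of short probes for 1 transcript) the one with the highest mean over all arrays stood for it. Of the 26 genes, 25 had a probe set naming that gene alone, and all 25 passed the filter on low values, among 18193 genes named in this way and 13959 tested. Acat2, a cytosolic thiolase, had no such probe set and was not analysed here.

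All 9 arrays came from 3 mice of the genotype GAD65-GFP, a reporter line in which GAD65 regulatory sequence drives green fluorescent protein in GABA-producing neurons. The cord of each mouse was divided into pieces labelled Dorsal, Intermediate and Ventral, so each region had 3 arrays (n = 3) and the regions could be compared within animals. No array came from a mouse without the transgene, and the labels mention neither a treatment nor a sort of fluorescent cells, so the values were treated as those of whole tissue pieces. The borders of the pieces are not given in the sources used here.

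Cells build cholesterol from acetyl-CoA through mevalonate, the isoprenoid diphosphates, squalene and lanosterol. Sterol regulatory element-binding proteins (SREBPs, encoded by Srebf1 and Srebf2) switch on the genes of these steps: the escort protein SCAP carries an SREBP from the endoplasmic reticulum to the Golgi, where it is cut and freed, and the INSIG proteins hold SCAP back when sterol is plentiful. In the postnatal nervous system little cholesterol enters from the blood, and myelinating glia, astrocytes and neurons make their own. Myelin membrane is rich in cholesterol.

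The stretches upstream of 4 members are shown because they hold the kinds of short element through which SREBPs and their partner factors are known to act: Hmgcs1 and Srebf2 held the sterol element searched for, Mvk had 5 CCAAT boxes, and Insig1 had an E-box. They are the 250 bases before the annotated start, 5′ to 3′ on the gene's strand, from RefSeq on GRCm38.p6, and capitals mark every match to a motif named in the next paragraph, on either strand.
Hmgcs1, chr13:119690101-119690350, + strand: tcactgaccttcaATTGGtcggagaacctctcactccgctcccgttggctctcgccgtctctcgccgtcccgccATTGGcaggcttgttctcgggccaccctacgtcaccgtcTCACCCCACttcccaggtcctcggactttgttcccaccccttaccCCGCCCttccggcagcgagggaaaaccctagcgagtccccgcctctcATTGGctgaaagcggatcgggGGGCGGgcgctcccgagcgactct
Srebf2, chr15:82147019-82147268, + strand: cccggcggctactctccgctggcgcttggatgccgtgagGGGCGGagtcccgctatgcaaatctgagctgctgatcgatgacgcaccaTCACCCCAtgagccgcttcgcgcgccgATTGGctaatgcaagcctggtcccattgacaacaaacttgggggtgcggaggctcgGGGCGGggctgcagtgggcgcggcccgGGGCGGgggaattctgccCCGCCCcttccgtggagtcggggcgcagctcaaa
Mvk, chr5:114444019-114444268, + strand: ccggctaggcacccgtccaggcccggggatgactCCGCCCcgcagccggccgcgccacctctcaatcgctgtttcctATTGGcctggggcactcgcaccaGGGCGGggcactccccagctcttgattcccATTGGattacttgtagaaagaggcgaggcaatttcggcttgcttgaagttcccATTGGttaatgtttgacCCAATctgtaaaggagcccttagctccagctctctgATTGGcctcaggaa
Insig1, chr5:28071162-28071411, + strand: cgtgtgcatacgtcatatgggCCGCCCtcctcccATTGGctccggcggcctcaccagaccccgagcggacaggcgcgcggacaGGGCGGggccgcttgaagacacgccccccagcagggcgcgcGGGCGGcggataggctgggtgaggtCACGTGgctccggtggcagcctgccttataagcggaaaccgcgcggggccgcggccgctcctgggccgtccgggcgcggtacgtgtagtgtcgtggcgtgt

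Promoter windows, 250 bases before to 50 bases after the start, were matched by symbol for 21 of the 26 members, with 29 windows in all because some genes have several starts. Any member entry on chr18 was left out of the search, whereas the windows of tested genes kept that chromosome. Each motif was searched on both strands. The core of the sterol regulatory element, TCACNCCAC, was found in 1 of the 29 windows, that of Hmgcs1 at position -137 from the start, and in 1.18% of the 14382 windows of genes tested on the arrays. The shorter form TCACCCCA, which overlaps the core, was found in Hmgcs1 at the same place and in Srebf2 at -162, and in 1.56% of the windows of tested genes. CCAAT, the box bound by the factor NF-Y, was in 20 of 29 windows (69%) and in 37.3% of those of tested genes. The GC box GGGCGG, bound by Sp1, was in 23 windows (79.3%) against 59.4%, and the E-box CACGTG in 6 (20.7%) against 9.35%, namely in windows of Hsd17b7, Sc5d, Dhcr7, Scap and Insig1. The median GC content was 61.3% in the members' windows and 60.3% in those of tested genes. A match describes these letters only.

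The arrays gave log2 values between 2.15, a floor shared by 36% to 36.3% of the probe sets of an array, and 16.3, and array medians lay between 3.66 and 3.75. No member was at the floor on any array. Arrays of 1 region correlated across probe sets at 0.998 to 0.9993, but the dorsal array of animal 1 stood apart in Schwann cell genes (list mean 9.26, against 7.79 and 7.34 on the other dorsal arrays) and in meningeal genes (9.88, against 8.76 and 9.05). The tissue was checked against markers: the summed levels of neuronal, astrocyte and oligodendrocyte genes were high in every region, whereas of the motor neuron genes Chat, Slc18a3 and Slc5a7 were removed by the filter at the floor, also in ventral pieces, and Prph was near the floor in dorsal and intermediate pieces (2.15 and 2.26) but not in ventral pieces (9.41). In pieces of tissue, fewer cells of a type and less RNA per cell cannot be told apart. Their number, 3 arrays a region, limits the precision.

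Ventral pieces had more RNA of nearly the whole pathway than dorsal pieces. Of the 25 measured members, 22 were higher in ventral pieces and 0 lower (limma, Benjamini-Hochberg over all genes tested), where 28.2% of all 13959 genes were called higher and 24.5% lower. At an unadjusted p of 0.05 the counts were 23 and 0, and 24 of 25 members were higher in ventral than in dorsal tissue in all 3 animals. The shares of all genes by these measures were not counted. On 22 members every ventral array lay above every dorsal array and on 0 below, against 32.5% and 27.5% of all genes. Without animal 1, 20 members were higher in ventral than in dorsal pieces (22.1% of all genes). The F test over the 3 regions called 22 of 25 members and 58% of all genes. The median difference of the members was 0.82 on the log2 scale, against 0.00 for all genes tested. The members that were not called were Ggps1, Scap and Insig2. Against intermediate pieces 20 members were higher in ventral pieces and 1 lower (24.9% and 23.4% of all genes), and these 20 were higher than in both other regions, as were 20.2% of all genes. Every ventral array lay above every intermediate array for 20 members (30% of all genes) and below for 2, Acat1 and Ggps1 (27.7% of all genes).

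**Figure D1:**
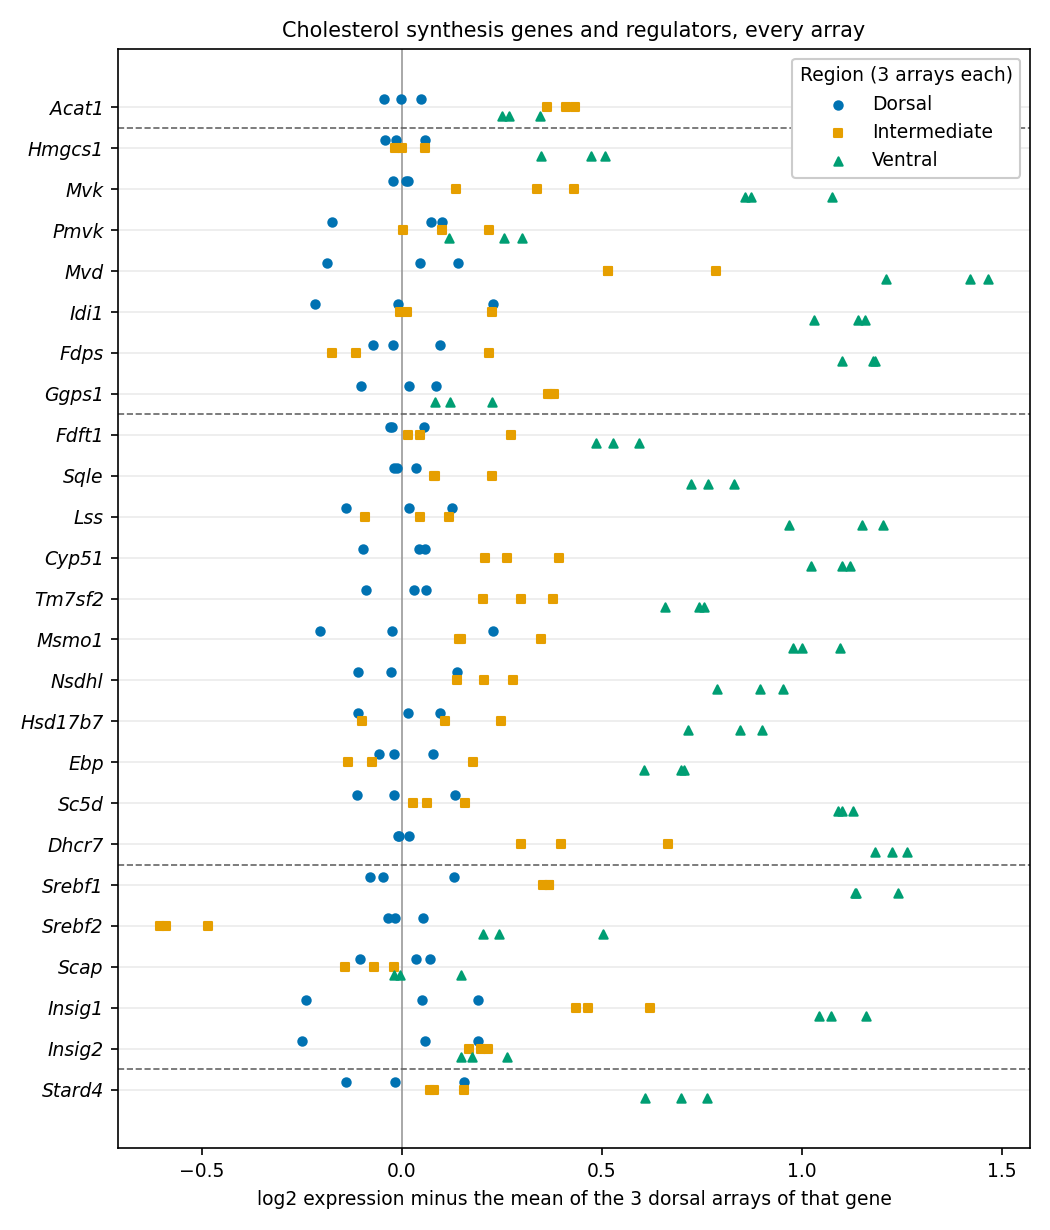
Each row is a gene in pathway order, and each point is 1 array, plotted as its log2 value minus the mean of the 3 dorsal arrays of that gene; dashed lines separate thiolase, isoprenoid, sterol, regulator and carrier genes. Ventral points of 22 members lie wholly to the right of the dorsal points, those of Ggps1, Scap and Insig2 overlap them, and the intermediate points of Srebf2 lie to the left of all others.

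At the entry of the pathway, Acat1 encodes a mitochondrial thiolase that also serves ketone body and amino acid metabolism. Its log2 values on the arrays of animals 1, 2 and 3 were 12.03, 12.07 and 12.12 in dorsal, 12.48, 12.43 and 12.50 in intermediate and 12.42, 12.32 and 12.34 in ventral pieces. The intermediate arrays were thus the highest, without overlap. The difference from dorsal was 0.40 ± 0.04 (SE of the model here and below, adjusted p = 0.0021), and ventral pieces lay 0.29 ± 0.04 above dorsal ones (adjusted p = 0.00215). Ventral minus intermediate was -0.11 ± 0.04 (adjusted p = 0.0532), which passed only where the animal was no block (adjusted p = 0.0319) or under some of the other settings tried.

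Among the steps from HMG-CoA to the isoprenoid diphosphates, 6 of 7 genes were higher in ventral than in dorsal pieces (28.2% of all genes). The largest difference of all members was that of Mvd, the decarboxylase that makes isopentenyl diphosphate. Mvd read 8.0, 7.77 and 8.09 in dorsal, 8.47, 8.47 and 8.74 in intermediate and 9.16, 9.37 and 9.42 in ventral pieces, so the 3 regions did not overlap. Ventral tissue was 2.58-fold above dorsal tissue (1.37 ± 0.09, adjusted p = 0.000273) and 1.69-fold above intermediate tissue (0.76 ± 0.09, adjusted p = 0.00207). Mvk, mevalonate kinase, had the same order, with 6.59, 6.55 and 6.58 in dorsal, 6.91, 6.71 and 7.01 in intermediate and 7.43, 7.45 and 7.65 in ventral pieces. Its ventral excess over dorsal was 1.91-fold (adjusted p = 0.000336), but its second, dimmer probe set gave 0.41 with an adjusted p of 0.0862. That second probe set gave 0.38 for ventral minus intermediate (adjusted p = 0.111) and 0.025 for intermediate minus dorsal, and was called in neither. The intermediate step of Mvk thus rested on 1 probe set.

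Idi1, the isomerase that supplies dimethylallyl diphosphate, separated the ventral pieces from both others. It read 12.80, 12.36 and 12.57 in dorsal, 12.59, 12.57 and 12.80 in intermediate and 13.61, 13.72 and 13.73 in ventral pieces. Fdps, which joins these units to farnesyl diphosphate, behaved alike at 10.49, 10.33 and 10.38, then 10.22, 10.28 and 10.62, then 11.50, 11.58 and 11.58 in the same order of regions. For both genes the dorsal and intermediate values overlapped and the ventral values were all higher. Ventral over dorsal was 2.16-fold for Idi1 (adjusted p = 0.00138) and 2.23-fold for Fdps (adjusted p = 0.000774).

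Hmgcs1, which makes HMG-CoA and whose upstream stretch holds the sterol element, showed a smaller difference on its brightest probe set. That probe set read 15.18, 15.08 and 15.11 in dorsal, 15.11, 15.13 and 15.18 in intermediate and 15.60, 15.47 and 15.64 in ventral pieces, 1.36-fold over dorsal (0.44 ± 0.04, adjusted p = 0.000753), near the top of the array's range. The other 4 probe sets of Hmgcs1 gave ventral minus dorsal differences of 0.42, 0.54, 1.00 and 1.14, the largest on the dimmest. Pmvk, phosphomevalonate kinase, was the least different of the linear steps, at 9.75, 9.99 and 10.02 in dorsal, 10.02, 9.92 and 10.14 in intermediate and 10.04, 10.18 and 10.22 in ventral pieces. Its ventral excess of 0.23 ± 0.07 over dorsal (adjusted p = 0.0426) was lost without animal 1 (adjusted p = 0.129) or 3 (0.215), and without the block (0.0808).

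Ggps1 stands on a side branch: its product, geranylgeranyl diphosphate, anchors small GTPases to membranes. On its brightest probe set it was highest in intermediate pieces, where it read 9.91, 9.92 and 9.90, against 9.62, 9.43 and 9.55 in dorsal and 9.66, 9.62 and 9.76 in ventral pieces. The intermediate values lay above all others, by 0.37 ± 0.05 over dorsal (adjusted p = 0.0064), and ventral minus intermediate was -0.23 ± 0.05 (adjusted p = 0.0163). Among all genes, 6.25% were called highest in the intermediate region, and Ggps1 was the only one of the 25 members so called. The call against ventral was lost without animal 1 (adjusted p = 0.0803), 2 (0.0961) or 3 (0.0771), and that against dorsal without animal 2 (0.0641) or 3 (0.0783). The peak also depended on the probe set: the second brightest gave -0.20 for ventral minus intermediate (adjusted p = 0.094), and the other 2 gave 0.16 and 0.06, with 0.03 and -0.01 for intermediate minus dorsal.

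All 11 genes of the squalene and sterol steps were higher in ventral than in dorsal pieces and higher than in intermediate pieces. Over all genes, 28.2% were called higher in ventral than in dorsal pieces, 24.9% than in intermediate pieces and 20.2% than in both. Their differences from dorsal ran from 0.54 for Fdft1 to 1.22 for Dhcr7 with a median of 0.88, and those from intermediate from 0.42 for Fdft1 to 1.08 for Lss with a median of 0.74. In none of the 11 did a ventral array overlap an array of another region. Over all genes, every ventral array lay above every dorsal array in 32.5% and above every intermediate array in 30%. Leaving out 1 animal ended no ventral call against dorsal among them. Against intermediate it ended those of Tm7sf2 (adjusted p = 0.0665) and Hsd17b7 (0.0574) without animal 2 and that of Msmo1 (0.0545) without animal 3.

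Fdft1, squalene synthase, commits farnesyl diphosphate to sterols, and Sqle, squalene epoxidase, adds the oxygen and is a rate-limiting step after HMG-CoA reduction. Sqle read 11.20, 11.14 and 11.15 in dorsal, 11.24, 11.25 and 11.39 in intermediate and 11.89, 11.93 and 11.99 in ventral pieces. The ventral values were 1.71-fold above dorsal (adjusted p = 0.00017), and the intermediate values lay above the dorsal ones without overlap, by 0.13 ± 0.04 (adjusted p = 0.081). Lss closes the ring to lanosterol and read 11.10, 10.83 and 10.99 in dorsal, 10.88, 11.02 and 11.09 in intermediate and 11.94, 12.12 and 12.18 in ventral pieces. Its dorsal and intermediate arrays overlapped and differed by 0.02 ± 0.10, with a 95% interval from -0.23 to 0.28. Its ventral pieces were 2.15-fold above dorsal ones (adjusted p = 0.000688).

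Cyp51, the cytochrome P450 that removes a methyl group from lanosterol, rose through all 3 regions. Its values were 11.74, 11.59 and 11.73 in dorsal, 11.95, 11.89 and 12.08 in intermediate and 12.71, 12.80 and 12.78 in ventral pieces. Ventral pieces stood 2.11-fold above dorsal ones (adjusted p = 0.000156) and 1.73-fold above intermediate ones (adjusted p = 0.000541). The demethylating steps that follow ran likewise in ventral against dorsal pieces: the oxidase Msmo1 by 1.02 ± 0.11, the dehydrogenase Nsdhl by 0.88 ± 0.08 and the reductase Hsd17b7 by 0.82 ± 0.11. The reductase Tm7sf2 (0.72 ± 0.06) and the isomerase Ebp (0.67 ± 0.06) showed less, and the desaturase Sc5d more (1.11 ± 0.06), with adjusted p of at most 0.00294 for these 6 genes.

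Dhcr7, the reductase that forms cholesterol from its immediate precursor, had tight dorsal values of 8.55, 8.52 and 8.52. Its intermediate values were 8.83, 8.93 and 9.20 and its ventral values 9.71, 9.76 and 9.79. No 2 regions overlapped. The ventral excess was 2.34-fold over dorsal (adjusted p = 0.000277) and 1.71-fold over intermediate pieces (adjusted p = 0.00143).

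The intermediate pieces were less uniform than the ventral ones. Compared with dorsal pieces, 9 of 25 members were higher (15.9% of all genes) and 1 was lower (14.2% of all genes): Acat1, Mvk, Mvd, Ggps1, Cyp51, Tm7sf2, Dhcr7, Srebf1 and Insig1 were higher, and Srebf2 was lower. Without regard to the test, all intermediate arrays lay above all dorsal ones for 10 members (22.3% of all genes) and below for 1 (20.1% of all genes). The median difference of the members was 0.13, against 0.00 for all genes. In 7 of these genes, Mvk, Mvd, Cyp51, Tm7sf2, Dhcr7, Srebf1 and Insig1, ventral pieces were higher again than intermediate ones, an order called in 5.12% of all genes. Among these 7, Mvk (0.025) and Mvd (0.51, adjusted p = 0.0808) lost the call of intermediate over dorsal with the second brightest probe set. In 12 members, Hmgcs1, Idi1, Fdps, Fdft1, Sqle, Lss, Msmo1, Nsdhl, Hsd17b7, Ebp, Sc5d and Stard4, ventral pieces were above both others and the intermediate and dorsal pieces were not called different (13.7% of all genes).

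As a description, the intermediate mean of Insig1 lay 46.4% of the way from the dorsal to the ventral mean, that of Mvd 44.3%, of Tm7sf2 40.8% and of Dhcr7 37.1%. For Idi1 it was 7.05%, for Hmgcs1 3.12% and for Lss 2.09%. These smaller calls rested on few arrays: 7, 2 or 2 members were called higher in intermediate than in dorsal pieces without animal 1, 2 or 3, and 2 when the ventral arrays were kept out of the fit. The share of all genes called higher fell too, from 15.9% to 7.03%, 10.4% or 5.48% without an animal and to 7.9% without the ventral arrays. The differences themselves moved less: that of Dhcr7 was 0.54, 0.48 or 0.34 without animal 1, 2 or 3, against 0.45. Acat1 was called in each of these fits. The 7 members called without animal 1 were not all among the 9. Mvk, Mvd, Cyp51, Tm7sf2 and Dhcr7 lost their calls there. Msmo1 (adjusted p = 0.0372), Nsdhl (0.0373) and Stard4 (0.0458) were called there but not with all animals. With each array centred on its median, 12 were higher and 1 lower, and over all genes the split moved from 2219 higher and 1983 lower to 3222 and 1540.

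**Figure D2:**
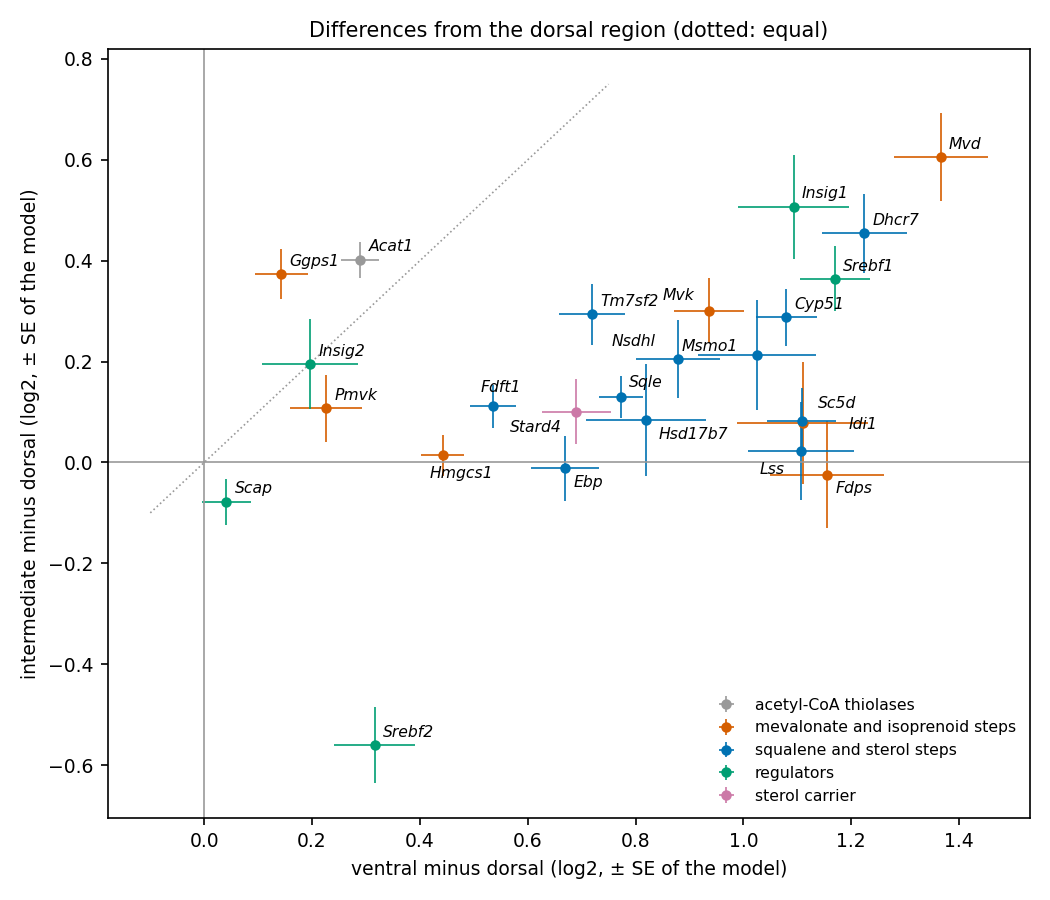
Each point is a gene, with its ventral minus dorsal difference on the horizontal axis and its intermediate minus dorsal difference on the vertical axis, both in log2 units with standard errors of the model; colours give the role in the pathway. Most enzymes lie far to the right and near or a little above 0 on the vertical axis, Acat1 and Ggps1 lie above the line of equal differences, and Srebf2 (0.32 and -0.56) stands below all others.

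The regulators divided by gene. Srebf1, whose SREBP-1 proteins serve mainly fatty acid genes, read 8.74, 8.53 and 8.56 in dorsal, 8.96, 8.98 and 8.98 in intermediate and 9.74, 9.85 and 9.74 in ventral pieces. The 3 regions did not overlap. Ventral pieces were 2.25-fold above dorsal ones (1.17 ± 0.06, adjusted p = 0.000182) and 1.75-fold above intermediate ones (adjusted p = 0.000719), and intermediate pieces were 1.29-fold above dorsal ones (adjusted p = 0.015).

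Srebf2, whose SREBP-2 protein is the main activator of the cholesterol genes, was lowest in intermediate pieces. It read 6.53, 6.44 and 6.46 in dorsal, 5.88, 5.99 and 5.87 in intermediate and 6.68, 6.98 and 6.72 in ventral pieces, again without overlap. Intermediate minus dorsal was -0.56 ± 0.08 (adjusted p = 0.00664) and ventral minus intermediate 0.88 ± 0.08 (adjusted p = 0.000865); 4.2% of all genes were called lowest in the intermediate region, and Srebf2 was the only such member. Its ventral excess over dorsal, 0.32 ± 0.08 (adjusted p = 0.0208), was lost without animal 1 (adjusted p = 0.056) or 3 (0.14). The call of intermediate against dorsal was lost without animal 1 (adjusted p = 0.0685) or 3 (0.113). The other probe set of Srebf2, similar in brightness, gave -0.10 for ventral minus dorsal, 0.13 for ventral minus intermediate and -0.23 for intermediate minus dorsal, and was called in none of them (adjusted p = 0.501, 0.388 and 0.197), so the size and the calls of this gene depended on the probe set.

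Insig1, a retention factor that is itself a target of SREBPs, followed the enzymes. Its values were 11.59, 11.16 and 11.45 in dorsal, 11.84, 11.87 and 12.02 in intermediate and 12.44, 12.47 and 12.56 in ventral pieces, with no overlap between regions. Ventral over dorsal was 2.13-fold (adjusted p = 0.000845), and ventral over intermediate 1.5-fold (adjusted p = 0.00822, but 0.1 without animal 3). Insig2, its paralogue, read 9.95, 9.51 and 9.81 in dorsal, 9.97, 9.95 and 9.92 in intermediate and 10.02, 9.90 and 9.93 in ventral pieces, and its regions overlapped. Its ventral minus dorsal difference was 0.20 ± 0.09 (adjusted p = 0.132, 95% interval -0.04 to 0.43).

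Scap was the flattest member. It read 10.09, 10.23 and 10.27 in dorsal, 10.05, 10.12 and 10.18 in intermediate and 10.18, 10.34 and 10.19 in ventral pieces. Ventral minus dorsal was 0.04 ± 0.05 (adjusted p = 0.516, 95% interval -0.08 to 0.16), an interval that does not reach the difference of any called member. Scap and Insig2 were the members with no call in any of the 3 comparisons, as were 37.8% of all genes.

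Stard4 encodes a soluble carrier that moves sterol between membranes and is itself regulated by sterol. It read 9.63, 9.34 and 9.46 in dorsal, 9.55, 9.54 and 9.63 in intermediate and 10.17, 10.08 and 10.24 in ventral pieces. The ventral arrays were all above the others and the rest overlapped. Ventral pieces were 1.61-fold above dorsal ones (adjusted p = 0.000794) and 1.5-fold above intermediate ones (adjusted p = 0.00168), and 2 further probe sets gave 0.64 and 0.79 for ventral minus dorsal.

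**Figure D3:**
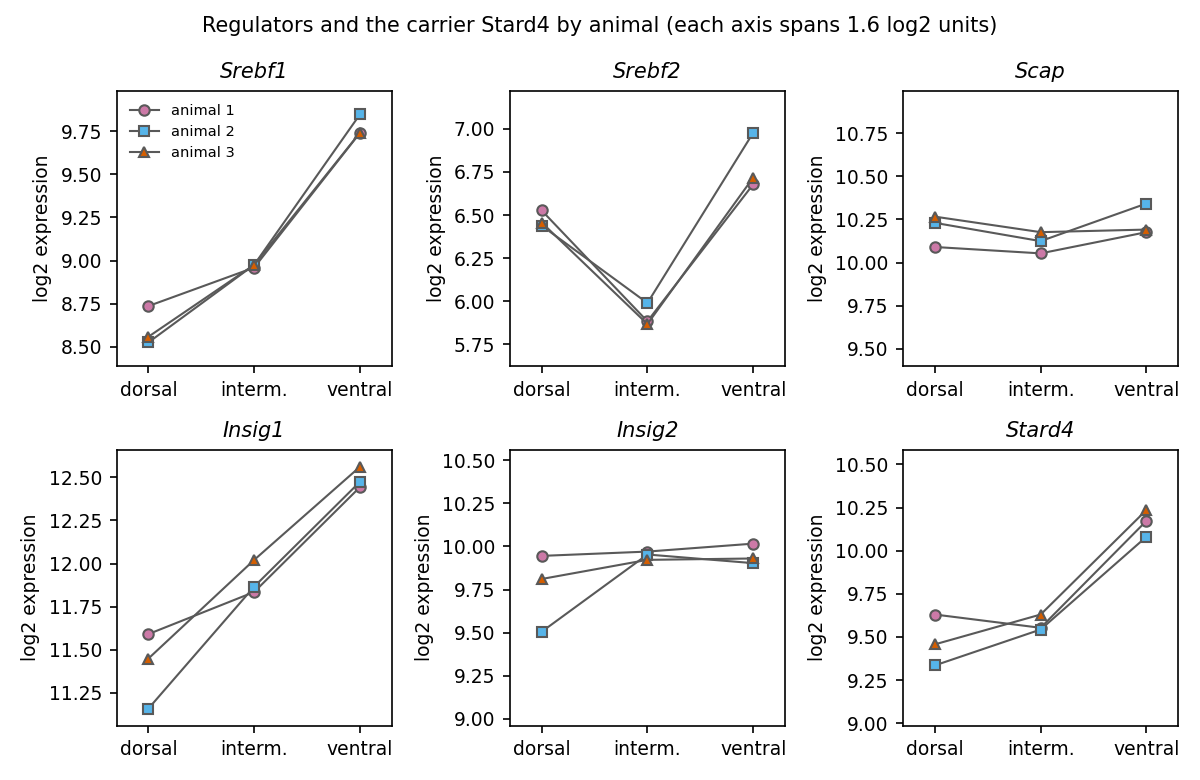
Log2 expression (vertical axes) of 5 regulators and of Stard4 in the 3 regions (horizontal axes), with a line for each animal and equal spans on all axes. Srebf1 and Insig1 climb from dorsal to ventral in every animal, Srebf2 dips in the intermediate piece of every animal, and Scap and Insig2 overlap between regions.

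Other probe sets of the same genes served as a check on the choice of 1 per gene. Above the floor, 26 further probe sets of 16 members were present. For ventral minus dorsal 22 had the sign of the chosen probe set, with values from -0.10 to 1.80, and 4 did not: the second probe set of Srebf2, 2 of Insig2 at -0.07 and -0.09, and 1 of Scap that was constant on all arrays. The highest value came from a dim probe set of Cyp51. For ventral minus intermediate 21 of the 26 had the sign of the chosen probe set and 5 did not, and for intermediate minus dorsal 19 did and 7 did not.

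Within a region the members tended to move together between animals. In dorsal pieces, animal 1 gave the highest value for 18 of 25 members and animal 2 the lowest for 20. Over all genes animal 1 was highest for 37.3% and animal 2 lowest for 25.6%. Tied values were credited to the animal with the lower number. This can raise the shares over all genes for animal 1 and lower those for animal 3, so the comparison with the members is rough. In intermediate pieces animal 3 was highest for 21 members (38% of all genes), and in ventral pieces animal 1 was lowest for 20 (43.2% of all genes). These offsets were small beside the ventral excess: the median deviation of the members from their region mean ran from -0.07 on dorsal array 2 to 0.10 on intermediate array 3. The members share arrays, so they are not separate observations of this order.

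Genes of fatty acid synthesis and desaturation, which SREBP-1 serves, showed the same direction. Of 14 listed and tested genes, 13 were higher in ventral than in dorsal pieces and 0 lower (limma; 13 and 0 at an unadjusted p of 0.05), with a median of 0.75. The shares called over all genes were 28.2% higher and 24.5% lower. Against intermediate pieces 12 were higher and 0 lower (12 and 0 unadjusted), with 24.9% and 23.4% of all genes so called. Intermediate pieces had 10 higher than dorsal ones and 0 lower (10 and 1 unadjusted), with 15.9% and 14.2% of all genes so called. The largest differences between ventral and dorsal pieces were those of Thrsp, a nuclear protein linked to lipogenesis (3.53 ± 0.17), of Acss2, which makes acetyl-CoA from acetate (1.64 ± 0.09), and of Elovl1, an elongase of very long chains (1.31 ± 0.24). Of the 3 genes with the highest mean level, the desaturase Scd2 differed by 0.22 ± 0.02, the elongase Elovl5 by 0.70 ± 0.03 and Acly, which makes cytosolic acetyl-CoA from citrate, by 0.99 ± 0.06. All 6 passed the test (adjusted p of at most 0.00814).

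Genes that take up, move, store or expel cholesterol were mixed. Of 19 tested out of 23 listed, 11 were higher and 3 lower in ventral than in dorsal pieces (28.2% and 24.5% of all genes), with a median of 0.14. The sterol hydroxylase Cyp27a1 read 4.79 in ventral pieces and an identical 2.36 on all dorsal and intermediate arrays, near the floor, so that it was higher in ventral pieces but only a lower bound of the difference could be had. The transporter Abca2 was higher by 1.56 ± 0.22 and the lysosomal lipase Lipa by 1.41 ± 0.03. The brightest genes of the list were also higher, the lysosomal protein Scarb2 by 0.36 ± 0.02, the efflux pump Abca1 by 0.75 ± 0.07 and the lysosomal sterol carrier Npc2 by 0.94 ± 0.05. The 3 lower genes, named after their values were seen, were the lipoprotein receptor Lrp8 (-1.36 ± 0.06), the efflux pump Abcg4 (-1.25 ± 0.09) and Cyp46a1 (-0.79 ± 0.04), the hydroxylase through which neurons turn cholesterol over.

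The machinery around the SREBPs showed no common direction. Of 13 tested partners out of 14 listed, 3 were higher and 5 lower in ventral than in dorsal pieces, with a median of 0.01. Over all genes 28.2% were higher and 24.5% lower. Pgrmc1, a haem-binding membrane protein, fell by 1.29 on the log2 scale (-1.29 ± 0.02, adjusted p = 2.58e-05), and the NF-Y subunit gene Nfyb was lower as well (-0.65 ± 0.02). Sp1, the factor of the GC box, was higher (0.68 ± 0.08). The bright partners Vcp (-0.06 ± 0.03) and Rnf145 (0.01 ± 0.04) were not called (adjusted p = 0.171 and 0.956). Among the other isoprenoid users, 3 of 12 tested out of 13 listed were higher and 2 lower, with a median of 0.08. The share of higher genes in this list was thus near that over all genes (28.2%). The higher ones included both subunits of the farnesyltransferase that lipidates proteins, Fntb (2.03 ± 0.18) and Fnta (0.81 ± 0.05), and the lower ones were the tRNA modifier Trit1 (-0.46 ± 0.07) and Nus1 of dolichol synthesis (-0.24 ± 0.05). Coq2, of ubiquinone synthesis, was not called (-0.04 ± 0.02, adjusted p = 0.213).

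Markers of several cell types moved with these genes. Over all genes, 28.2% were called higher and 24.5% lower in ventral than in dorsal pieces. The shares were 24.9% and 23.4% for ventral against intermediate pieces, and 15.9% and 14.2% for intermediate against dorsal pieces. Of 14 tested oligodendrocyte genes out of 15 listed, 13 were higher in ventral than in dorsal pieces and 13 higher than in intermediate pieces, among them Mog (3.26 ± 0.21 over dorsal) and Ermn (2.81 ± 0.12). The gap junction gene Gjb1 was near the floor in dorsal and intermediate pieces (2.24 and 2.25) and read 6.19 in ventral pieces, which gives only a lower bound of its difference. The exception was Mbp, near the top of the scale at 15.96, 15.94 and 15.98 in dorsal, intermediate and ventral pieces. The summed level of the list, on a linear scale, ran from 116000 to 131000 in dorsal, from 116000 to 140000 in intermediate and from 216000 to 228000 in ventral pieces. Between intermediate and dorsal pieces 0 of the 14 were called higher or lower by limma (0 also at an unadjusted p of 0.05). All 7 genes of oligodendrocyte precursors were higher in ventral than in dorsal pieces (Nkx2-2 by 1.62 ± 0.11, Olig2 by 1.31 ± 0.07, Gpr17 by 1.09 ± 0.03), and in 6 of the 7 intermediate pieces also exceeded dorsal ones. Their summed level was 15700 to 17000, 22300 to 23500 and 30200 to 31000 in dorsal, intermediate and ventral pieces.

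All 10 astrocyte genes were higher in ventral than in dorsal pieces (28.2% of all genes). Slc1a3 (1.47 ± 0.07), S100b (1.42 ± 0.04) and Fgfr3 (1.20 ± 0.04) were in front. In intermediate against dorsal pieces 6 were higher and 1 lower (15.9% and 14.2% of all genes), and 3 were not called. The lower one, named after its value was seen, was Gfap (-1.63 ± 0.16). The summed level of the 10 was 85900 to 95200 in dorsal, 107000 to 114000 in intermediate and 146000 to 149000 in ventral pieces. Of 10 neuronal genes 9 were lower in ventral than in dorsal pieces (24.5% of all genes). Among them were Gad1 (-3.25 ± 0.09), Syt1 (-2.91 ± 0.06) and Slc17a6 (-1.58 ± 0.06). The summed level of the neuronal list was 83200 to 92300, 79900 to 84200 and 38800 to 39100 in the same order. Endothelial genes were higher in ventral than in dorsal pieces in 5 of 7 (28.2% of all genes). Flt1 was higher by 1.14 ± 0.14 and Kdr by 0.95 ± 0.22, whereas Slco1a4 at 0.96 ± 0.32 was not called. Motor neuron genes were higher in 3 of 4 (Nefh by 3.30 ± 0.14), set against the same share of all genes. Of the motor neuron genes Prph was at the floor on all dorsal arrays and Isl1 at or near it (dorsal mean 2.41, ventral mean 6.92), so their differences are lower bounds. The part of these cell types in the differences of the cholesterol genes was not tested.

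**Figure D4:**
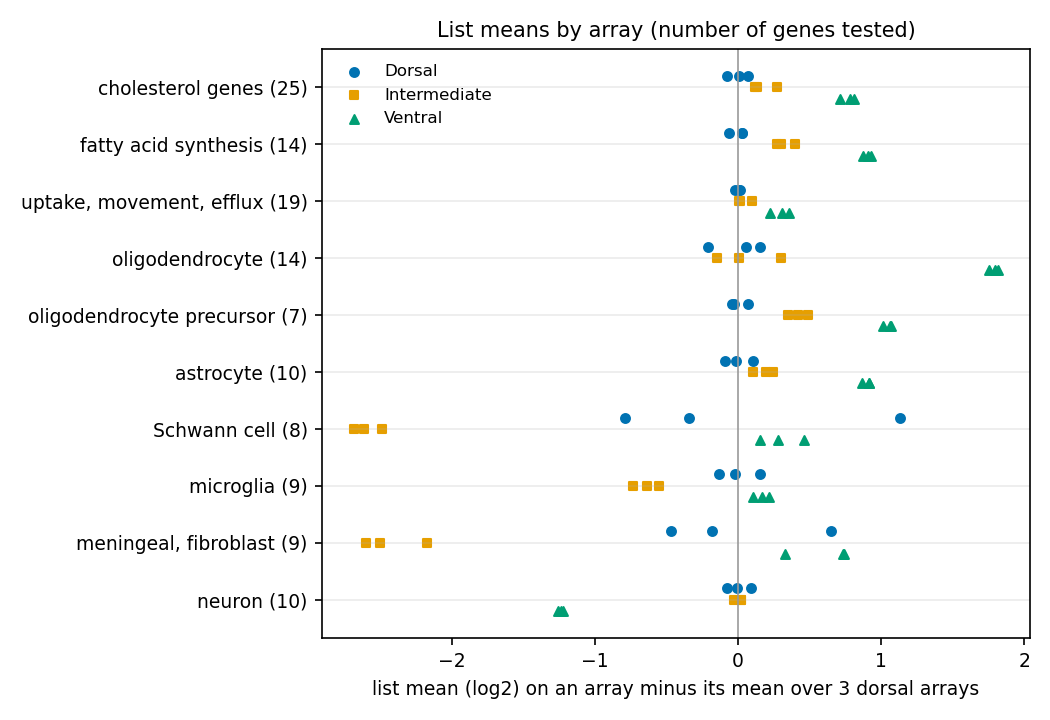
Each point is 1 array, plotted as the mean log2 level of a gene list on that array minus its mean over the 3 dorsal arrays; the number of genes tested is in brackets. The cholesterol genes, fatty acid genes and precursor genes lie in the order dorsal, intermediate, ventral, astrocyte genes likewise except that the highest dorsal array equals the lowest intermediate one, the oligodendrocyte list separates the ventral arrays alone, and the Schwann cell and meningeal lists are lowest in intermediate pieces.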

How the data were processed

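RNA of dorsal, intermediate and ventral spinal cord pieces was measured on Affymetrix arrays. Per the labels' protocols, 500 ng of total RNA was made into biotin-labelled cRNA with a 3' in vitro transcription kit. The authors' deposited values were read as log2 from their range of 2.15 to 16.3. The scale is unstated in the labels, as is how probes were summarised and arrays normalised.

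Of 45037 probe sets, 34945 named 1 gene, 932 several and 9160 none. Each of 18193 genes took its brightest probe set, and genes with a mean at or above the 30th percentile of probe set means (2.14606) were tested, which left 13959. In limma 3.58.1 (R 4.3.3), all 9 arrays entered 1 linear model with terms for region and for animal (the block), moderated with eBayes (4 residual and 0.749 prior degrees of freedom). Tests are two-sided, adjusted by Benjamini-Hochberg over all genes and called at 0.05; intervals use the same spread. Named beside the members are, of each pathway list, the 3 called genes with the largest ventral minus dorsal difference and the 3 with the highest mean, and of each cell type list the 3 with the largest difference. Members and lists were chosen with earlier results of these data known. Sample titles number the animals, which gives the pairing; deviations of same-animal arrays correlated at -0.0661 to 0.246 across genes (9 pairs) and those of different animals at -0.18 to 0.161 (18 pairs). Identical values on several arrays, counted within a tolerance of 1e-06, can make a spread look small; Hmgcs1, Srebf1, Scap and Stard4 had 8 distinct values of 9. The fit was tested on simulated data. Alternatives were other probe sets, filters, centring, priors, fits without the block or of 2 regions only, and fits without 1 animal. Figures were drawn with Python 3.11.15 and matplotlib 3.10.9. Promoters came from RefSeq.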

Additional observations from a re-analysis of the deposited data

How the results depend on the processing

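The ventral excess of the members kept its count within 1.5 times under the alternatives tried: 19 to 23 members were higher in ventral than in dorsal pieces and 17 to 20 higher than in intermediate pieces. Over the same alternatives, 19.9% to 42.2% of all genes were higher than in dorsal pieces and 15.6% to 38.1% higher than in intermediate pieces. The setting restricted to genes with 9 distinct values left out Hmgcs1, Srebf1, Scap and Stard4. Without 1 animal the counts were 20 to 22 and 18 to 20 (19.9% to 22.1% and 15.6% to 17.9% of all genes). The F test over regions then called 18 to 21 of 25, against 22 with all animals. It called 58% of all genes with all animals, and that share was not counted without an animal. Without the replicate block 21 members were higher than in dorsal pieces (Pmvk was lost), 20 higher and 2 lower than in intermediate pieces, where Acat1 joined Ggps1. The count lower than in intermediate pieces was also 2 with median centring and with the mean of all probe sets, 0 with the second brightest probe set, and 0 to 1 without an animal. For intermediate against dorsal pieces the count of higher members was 2 when the ventral arrays were left out and 2 to 7 without an animal, while the share of all genes called higher fell from 15.9% to 7.9% and to between 5.48% and 10.4%. The 7, found without animal 1, included Msmo1, Nsdhl and Stard4, which had not been called with all animals. The count of lower members was 0 with the second brightest probe set and 0 to 1 without an animal. The cause was not tested. Genes near 0 changed sign. With centring these were Insig2 in ventral minus intermediate (-0.022) and, in intermediate minus dorsal, Fdps (0.047) and Ebp (0.059). With the mean of probe sets they were Insig2 (-0.066) and Hmgcs1 (-0.028) in the same comparisons. With the second brightest probe set they were Srebf2 (-0.097) and Insig2 (-0.065) in ventral minus dorsal, Insig2 (-0.15) in ventral minus intermediate and Hsd17b7 (-0.023) in intermediate minus dorsal. Leaving out an animal, Insig2 ranged from -0.021 to 0.027 in ventral minus intermediate. In intermediate minus dorsal Hmgcs1 then ranged from -0.015 to 0.058, Idi1 from -0.001 to 0.224, Fdps from -0.156 to 0.099, Lss from -0.058 to 0.144, Hsd17b7 from -0.051 to 0.184 and Ebp from -0.068 to 0.022. Of these only the Srebf2 difference had been called. Over single genes and comparisons, 799 results kept direction and side of the threshold, 52 lost a call, 14 gained one and 20 changed sign.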

Other observations

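Lists with their low point in the intermediate region did not share the members' order. In microglia, 9 of 9 genes had less RNA in the intermediate than in the dorsal region, as had 14.2% of all genes. In ventral against dorsal pieces 1, Ctss, was higher (0.51 ± 0.05), where 28.2% of all genes were called higher. C1qc (-0.25 ± 0.28) and C1qb (0.24 ± 0.17) were not called. Of 9 meningeal and fibroblast genes 8 were lower in intermediate than in dorsal pieces and 9 lower than in ventral pieces. The shares over all genes were 14.2% and 24.9%. Between ventral and dorsal pieces 2 of these 9 were called, both higher in ventral, as were 28.2% of all genes. Lum differed by 2.03 ± 0.34, and Col1a1 (1.06 ± 0.47) and Foxc1 (0.52 ± 0.18) were not called. Srebf2 was the 1 member called lowest there, and of the other 24 members 0 were called lower in intermediate than in dorsal pieces by limma (0 also at an unadjusted p of 0.05).

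The Schwann cell list varied most between dorsal arrays. Its mean log2 level was 9.26, 7.79 and 7.34 in the dorsal pieces of animals 1, 2 and 3, between 5.45 and 5.64 in intermediate and between 8.28 and 8.59 in ventral pieces. In ventral minus dorsal 2 of the 8 tested genes were higher and 1 lower (28.2% and 24.5% of all genes). The share of higher genes in this list was thus near that over all genes. Cdh19 (2.22 ± 0.52) and Mal (2.08 ± 0.40) were the higher ones, and Egr2 (-1.43 ± 0.70) was not called. The lower one, named after its value was seen, was Drp2 (-0.55 ± 0.08). The mean over the 25 cholesterol genes was 10.19, 10.04 and 10.13 on the same dorsal arrays, 10.24 to 10.39 in intermediate and 10.83 to 10.93 in ventral pieces.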
